A study of Mus musculus with 2 samples.

Results

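Chil3-high macrophages were a small set of 53 cells among 30733 filtered peritoneal cells, with 25 of the 16000 Cd36-/- cells and 28 of the 14733 fl/fl cells. They were chosen by counts of unique molecular identifiers (UMIs, each 1 captured RNA molecule) in each cell. A member had at least 10 UMIs of C1qa, C1qb and C1qc per 10000, which marks macrophages, and no UMI of Gata6, Garnl3, Tgfb2 or Ltbp1, genes of resident large peritoneal macrophages. It had at least 5 UMIs of Chil3, at most 1 of Folr2, fewer than 10 of Retnla and at most 2 of the lymphocyte genes Cd79a and Cd3e together. Both sums of cell cycle genes (Mki67, Top2a, Birc5, Ube2c, Cenpf and Nusap1; Mcm3, Mcm5, Mcm6, Hells and Uhrf1) were under 5 UMIs. The rule is itself a measurement, so the levels of these genes in the members are given as a description and support nothing.

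The study injected zymosan, a yeast cell wall preparation that gives sterile peritonitis, into the peritoneal cavity of mice at 1 mg per animal and took all peritoneal cells 3 days later. The Cd36-/- group carried floxed CD36 with LysM-Cre, in which the lysozyme M (Lyz2) locus drives the recombinase in myeloid cells, so deletion was not limited to these macrophages. The fl/fl group carried floxed CD36, and no Cre is named in its labels. Both groups were 10 to 14 weeks old, both had received zymosan, and no group without it is analysed here. Each group was 1 droplet library (10x 3′ v2) whose label names a pool of 4 replicates, so 25 and 28 cells stand for 1 pool each. No test between the groups was possible, and no replicate spread is known. Every interval given is a 95% interval for counting error only: exact Poisson for CPM (UMIs of a gene per 1000000 UMIs of the summed cells), exact Clopper-Pearson for shares, and exact conditional binomial for ratios.

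Chil3 (also called Ym1) encodes a secreted chitinase-like protein that binds sugars without cutting chitin and is made by mouse myeloid cells, alternatively activated macrophages and neutrophils among them. After zymosan, monocytes that express Ccr2 and Ly6c2 enter the peritoneal cavity, become macrophages, and live beside resident large macrophages, which depend on the transcription factor Gata6. The label given to these cells, recruited-type macrophages, rests on 4 other genes. Prtn3 encodes proteinase 3, a serine protease of myeloid granules, Hp encodes haptoglobin, which binds free haemoglobin, Arg1 encodes arginase 1, and Lpl encodes lipoprotein lipase. In GENCODE M21 (mm10), Chil3 (ENSMUSG00000040809) lies at chr3:106147554-106167564, Prtn3 at chr10:79874476-79883174, Hp at chr8:109575128-109579172, Arg1 at chr10:24915221-24927484 and Lpl at chr8:68880491-68907448.

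The 250 bases before the RefSeq start site are shown for Chil3, which defines the cells, for Prtn3, a label gene with a higher level in them, and for Slpi, an abundant gene that differed between the libraries (build GRCm38.p6, all 5′ to 3′ on the gene's strand). The RefSeq windows lie at chr3:106167565-106167814 on the minus strand for Chil3, chr10:79879417-79879666 on the plus strand for Prtn3, and chr2:164356508-164356757 on the minus strand for Slpi. Capitals mark matches on either strand to a C/EBP-type motif (TTNNGNAA) or a PU.1-type core (GAGGAA), 2 factors known in myeloid cells.
Chil3: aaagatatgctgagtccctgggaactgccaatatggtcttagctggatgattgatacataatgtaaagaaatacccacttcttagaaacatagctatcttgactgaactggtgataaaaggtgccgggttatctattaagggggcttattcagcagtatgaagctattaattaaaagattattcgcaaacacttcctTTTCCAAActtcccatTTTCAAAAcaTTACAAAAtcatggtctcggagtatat
Prtn3: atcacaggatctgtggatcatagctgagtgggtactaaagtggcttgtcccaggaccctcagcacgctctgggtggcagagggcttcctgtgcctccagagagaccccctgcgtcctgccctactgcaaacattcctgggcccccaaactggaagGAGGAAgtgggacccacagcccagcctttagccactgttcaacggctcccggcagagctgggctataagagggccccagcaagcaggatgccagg
Slpi: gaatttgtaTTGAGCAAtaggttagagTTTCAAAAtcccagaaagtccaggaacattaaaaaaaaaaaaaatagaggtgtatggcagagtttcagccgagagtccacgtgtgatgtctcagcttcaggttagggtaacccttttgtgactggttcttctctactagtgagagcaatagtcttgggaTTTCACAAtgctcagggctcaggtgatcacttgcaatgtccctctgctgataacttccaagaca

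Chil3 held 3 C/EBP-type matches, which begin 53, 37 and 27 bases before the start site as -53, -37 and -27, and Slpi also held 3. Prtn3 held 1 PU.1-type match, at -95. Of 32851 promoters of this length, 36.8% held the first motif and 23.3% the second. The STAT6-type motif TTCNNNNGAA, in 5.85% of all promoters, matched none of these windows. A match is a description of the letters and does not show that a factor binds there.

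The members were the upper end of a continuous range of Chil3 counts and did not stand apart from the cells below them. Among 2621 Gata6-low, Folr2-low macrophages of the Cd36-/- library, 2097 cells had 0 Chil3 UMIs, 319 had 1, 112 had 2, 52 had 3 and 16 had 4. Of 1826 such cells in the fl/fl library, 1497 had 0, 198 had 1, 62 had 2, 25 had 3 and 16 had 4. Just inside the limit, 6 Cd36-/- and 15 fl/fl cells had exactly 5 UMIs, at medians of 6.04 and 4.44 Chil3 UMIs per 10000. Just outside it, the 16 cells with 4 UMIs in each library had medians of 4.50 and 4.06 per 10000, so members and non-members overlapped once depth was taken into account. The highest member had 16 Chil3 UMIs among Cd36-/- cells and 10 among fl/fl cells.

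**Figure D1:**
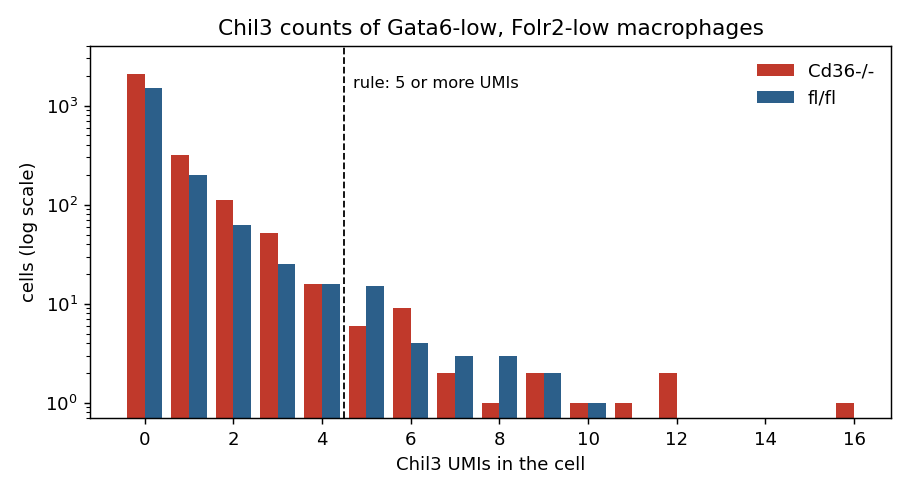
Number of Gata6-low, Folr2-low macrophages (log scale) with each Chil3 UMI count, Cd36-/- in red and fl/fl in blue, with the dashed line at the limit of 5 UMIs. The counts fall without a gap through the limit, from 16 cells with 4 UMIs in each library to 6 Cd36-/- and 15 fl/fl cells with 5.

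Chil3 was also not limited to these cells. At least 5 Chil3 UMIs were found in 140 Cd36-/- cells, of which 76 were C1q-positive cells with a UMI of Gata6, Garnl3, Tgfb2 or Ltbp1 and 34 were below the C1q limit. In the fl/fl library the same count was reached in 124 cells, 42 of them with such a UMI and 40 below the C1q limit. The members held 4.11% (Cd36-/-) and 5.21% (fl/fl) of all Chil3 UMIs of filtered cells. The absence of the 4 resident genes also depends on depth, since 1341 Cd36-/- and 878 fl/fl macrophages had exactly 1 UMI of them, next to 3296 and 2446 with none.

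The members' share was low in both libraries and the interval of the difference included 0. Of filtered cells it was 0.156% (0.101 to 0.231) for Cd36-/- and 0.190% (0.126 to 0.275) for fl/fl, and the 2 values differed by -0.0338 percentage points (-0.135 to 0.0641). Of C1q-positive cells it was 0.220% of 11377 against 0.325% of 8613, and the difference of -0.105 points had an interval from -0.269 to 0.0456. Of Gata6-low, non-cycling macrophages it was 0.758% of 3296 against 1.14% of 2446, with an interval of the difference from -0.958 to 0.139 points. The order of the libraries turned with the Chil3 limit: with 3 UMIs the members were 93 and 69 cells, or 0.581% and 0.468% of filtered cells, and with 5 UMIs per 10000 they were 0.350% and 0.278%.

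Member depth ran from 6268 to 11420 UMIs (median 8264) for Cd36-/- and from 7060 to 13650 (median 9890) for fl/fl. These medians lay above those of all filtered cells (6822 and 7136), as a raw limit on 1 gene favours deep cells, and mitochondrial genes held medians of 2.05% and 1.99% of UMIs. Scrublet, a doublet caller, marked 6.11% and 4.94% of filtered cells and 0 members. The libraries shared 383 barcodes, and no member's barcode occurred in the other library. Of 16 neutrophil genes, 12 were at 0 in the Cd36-/- members and 9 in the fl/fl members, Ly6g, Retnlg, Camp, Ngp, Ltf, Elane and Mmp8 in both, and the list summed to 0 to 8.47 and 0 to 5.44 UMIs per 10000 in a cell. B cell genes summed to 0.973 to 7.97 per 10000 in Cd36-/- members and to 0 to 40.2 in fl/fl members. In the same order, the 12 T and NK cell genes summed to at most 1.28 and 2.83. Of 12 dendritic cell genes, 8 and 9 were at 0, with Flt3, Zbtb46, Xcr1 and Clec9a at 0 in both libraries. Genes of mast cells, basophils and eosinophils and of mesothelial cells were all at 0 in Cd36-/- members, with 11 of 12 of each at 0 in fl/fl members.

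By CPM, 3 of the 4 other label genes were higher in the members than in other macrophages, Lpl least clearly. None was particular to them and Arg1 was absent from most. For comparison, Folr2-positive cells are Gata6-low macrophages with at least 2 Folr2 UMIs (673 Cd36-/- and 614 fl/fl cells), Chil3-low cells are Gata6-low, Folr2-low macrophages under the Chil3 limit (2596 and 1798), and large peritoneal macrophages have at least 2 UMIs of the 4 resident genes (4191 and 3029). Prtn3 was at 758 CPM in Cd36-/- members and 539 CPM in fl/fl members, against 373 and 378 CPM in Chil3-low cells. In Folr2-positive cells Prtn3 was at 314 and 338 CPM. Hp, at 820 and 577 CPM in members, was at 327 and 294 CPM in Chil3-low cells and 220 and 184 CPM in large peritoneal macrophages. Both genes were thus highest in the members of each library, with the other 3 classes at lower, nonzero levels. Lpl was at 721 and 618 CPM in members and 536 and 542 CPM in Chil3-low cells. The fl/fl members' interval of 531 to 715 CPM holds the Chil3-low level.

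Arg1 gave the weakest match to the label. It was at 203 CPM in Cd36-/- members, of which 1 cell held 44.2%, and at 155 CPM in fl/fl members, while Folr2-positive cells were at 137 and 155 CPM. Only 9 of 25 Cd36-/- members and 11 of 28 fl/fl members had an Arg1 UMI. At an equal depth of 6804 UMIs per cell these shares were 40.9% (20.7 to 63.6) and 28.6% (13.2 to 48.7). Folr2-positive cells had 39.1% and 36.8%, and Chil3-low cells 34.6% and 30.7%. Prtn3 was seen in 23 of 25 and 23 of 28 members, Hp in 25 and 25, and Lpl in 22 and 26. In B cells, which should lack these genes, 9.07% and 8.61% of cells had a Prtn3 UMI and 10.4% and 9.01% an Hp UMI at median depths of 4232 and 4783 UMIs, against 92.0% and 82.1% of members for Prtn3. A single UMI of these genes can therefore come from free RNA, while the members' shares lay well above that level. At 6804 UMIs per cell, Prtn3 was seen in 86.4% (65.1 to 97.1) and 78.6% (59.0 to 91.7) of members. In Chil3-low cells it was seen in 79.1% and 74.8%. Hp was seen in 95.5% (77.2 to 99.9) and 85.7% (67.3 to 96.0) of members, against 79.5% and 72.8% of Chil3-low cells. Lpl was seen in 86.4% (65.1 to 97.1) and 92.9% (76.5 to 99.1) of members, against 86.5% and 83.3% of Chil3-low cells. The members' intervals hold the Chil3-low shares of Prtn3, Hp and Lpl.

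Of the monocyte genes Ly6c2 and Ccr2, Ly6c2 was higher in members than in Folr2-positive cells of both libraries. Ly6c2, a surface antigen of classical monocytes, was at 66.0 CPM in Cd36-/- members and 61.8 CPM in fl/fl members, against 16.2 and 13.7 CPM in Folr2-positive cells. The log2 ratios were 2.02 (1.10 to 2.84) and 2.17 (1.35 to 2.92). In Chil3-low cells Ly6c2 was at 49.1 and 29.9 CPM, and the Cd36-/- members' interval of 36.1 to 111 CPM holds the first of these. The members' levels rest on few cells, since 8 of 25 and 9 of 28 members had any Ly6c2 UMI. At 6804 UMIs per cell, Ly6c2 was seen in 22.7% (7.82 to 45.4) and 21.4% (8.30 to 41.0) of members. These intervals hold the Chil3-low shares of 16.1% and 10.9% and lie above the Folr2-positive shares of 7.26% and 6.69%. B cells had 7.14% and 5.92%. Ccr2, the chemokine receptor by which monocytes leave the bone marrow and enter tissue, was at 415 and 409 CPM. The other Gata6-low classes lay between 314 and 473 CPM, and large peritoneal macrophages at 86.3 and 80.1 CPM. The members' log2 ratios of Ccr2 to Folr2-positive cells were 0.40 (0.07 to 0.71) and 0.19 (-0.08 to 0.46). Of 22 compared genes of recruited monocytes and small macrophages, 3 were at least 1.5-fold higher than in Folr2-positive cells in both libraries, Ly6c2 among them, and 2 were at least 1.5-fold lower, F13a1 among them, against 2.32% and 5.52% of 5311 genes. By CPM of the classes Hp and Prtn3 were higher in the members, Arg1 was absent from most of them, and the monocyte genes were mixed. The label genes were chosen with earlier results of these data known, so these levels describe the members and do not check the label. By equal-depth shares, Hp, Prtn3 and Lpl did not set the members clearly apart from Chil3-low cells. The cells are called by their rule, Chil3-high macrophages, because the rule takes a range of 1 count and not a separate type.

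**Figure D2:**
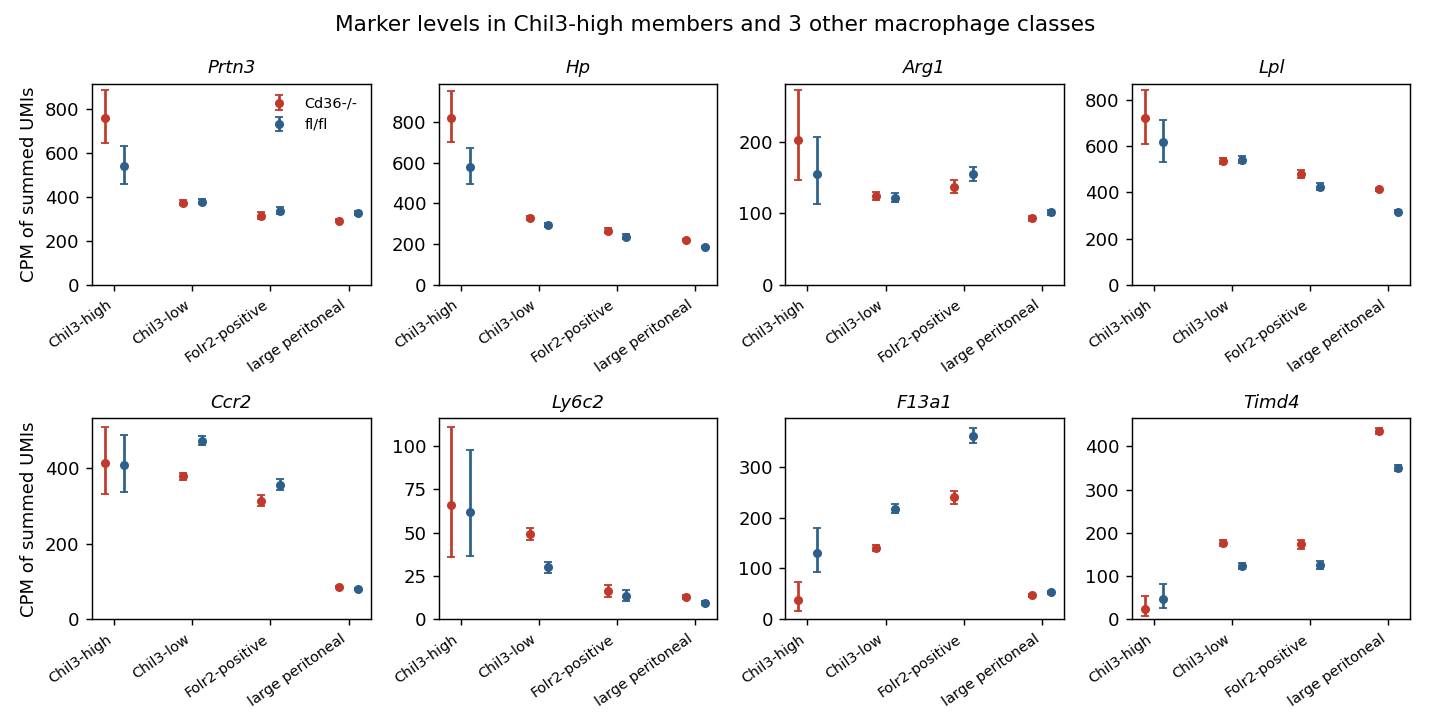
CPM of summed UMIs of 8 genes in Chil3-high members, Chil3-low, Folr2-positive and large peritoneal macrophages, Cd36-/- in red and fl/fl in blue, with 95% Poisson intervals. Hp and Prtn3 are highest in the members, Ccr2 lies between 314 and 473 CPM in the Gata6-low classes and under 100 in large peritoneal macrophages, and Timd4 is lowest in the members, at 23.6 and 48.1 CPM.

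By CPM of summed UMIs, the members had higher levels of Slpi, Hp, Prg4, Id2, Lrg1 and Pglyrp1 than Folr2-positive cells. Levels of Mrc1, Cbr2, F13a1, Fcgrt and Timd4 were lower. Of 5311 genes, 123 (2.32%) were at least 1.5-fold higher in both libraries and 293 (5.52%) at least 1.5-fold lower, counting size alone. Slpi, a secreted protease inhibitor of inflamed tissue, was at 12710 and 5056 CPM in members against 3770 and 2466 CPM. Its log2 ratios of 1.75 and 1.04 went with levels in large peritoneal macrophages (13239 and 12117 CPM) that equalled or exceeded the members'. B cells had a Slpi UMI in 93.3% and 87.0% of cells, so Slpi was also widespread as possible free RNA. Pglyrp1, a peptidoglycan-binding protein, was 1.00 and 1.17 higher on the log2 scale. Lrg1, a secreted leucine-rich glycoprotein, was 0.86 and 0.85 higher, Id2, an inhibitor of helix-loop-helix factors, 1.37 and 0.88, and Ctss, cathepsin S, 0.54 and 0.53.

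Prg4 and Alox15, both strong in large peritoneal macrophages, were among the higher genes. Prg4, a lubricating proteoglycan, was at 763 and 416 CPM in members, 279 and 217 CPM in Folr2-positive cells, and 1959 and 2098 CPM in large peritoneal macrophages. Alox15, the 12/15-lipoxygenase of pro-resolving lipid synthesis, was at 269 and 131 CPM in members and 1254 and 1177 CPM in large peritoneal macrophages, and 1 cell held 66.7% of the Cd36-/- Alox15 UMIs. Timd4, a phosphatidylserine receptor of resident macrophages, went the other way, at 23.6 and 48.1 CPM in members, 173 and 125 CPM in Folr2-positive cells, and 436 and 350 CPM in large peritoneal macrophages. Thus 2 genes of large peritoneal macrophages were higher in the members than in Folr2-positive cells while Timd4 was lower than in either. Of 12 compared genes of that list, 2 were at least 1.5-fold higher and 2 lower in both libraries, beside 2.32% and 5.52% of all genes. The list medians were 0.05 and 0.05. Marco was also lower, but its ratio changed sign in alternatives given below.

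Among the lower genes, Mrc1, the mannose receptor, was at 9.42 and 6.87 CPM in members, on 2 UMIs in each library, and at 80.9 and 82.0 CPM in Folr2-positive cells. Cbr2, a carbonyl reductase, was lower by log2 ratios of -2.98 and -2.49, and F13a1, coagulation factor XIII subunit A, by -2.67 and -1.47. Fcgrt, the neonatal Fc receptor, was at -1.85 and -1.51, Lgals1, galectin 1, at -1.21 and -0.98, and the transcription factor Maf at -1.13 and -1.82. Pf4, platelet factor 4, was at -1.17 and -1.60, although 1 cell gave 57.6% of the Pf4 UMIs of Cd36-/- members. Among listed groups, efferocytosis genes had 0 of 15 higher and 2 lower in both libraries, and alternative activation genes 0 of 7 higher and 4 lower, beside the 2.32% and 5.52% of all genes. Those 4 were Mrc1, Clec10a, Il4ra and Retnla, of which Retnla belongs to the rule.

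Several of these differences also ran along the Chil3 count below the limit. Gata6-low, Folr2-low cells of at least 6268 UMIs, the lowest member depth, were grouped by 0, 1, 2, 3 to 4 and 5 or more Chil3 UMIs. Hp was at 358, 402, 534, 580 and 820 CPM in Cd36-/- cells and at 299, 373, 389, 404 and 577 CPM in fl/fl cells, higher at each step in both. Prtn3 was at 406, 520, 560, 707 and 758 CPM in the Cd36-/- library but at 408, 449, 693, 624 and 539 CPM in the fl/fl library, where the highest value was at 2 UMIs. Timd4 was at 188, 147, 142, 128 and 23.6 CPM and at 132, 78.3, 56.7, 60.3 and 48.1 CPM. F13a1 declined along the same order from 139 to 37.7 CPM and from 224 to 131 CPM, whereas Ccr2 showed no steady order, at 393, 338, 339, 406 and 415 CPM in the Cd36-/- library. The groups share 1 library each, and the steps carry no test.

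**Figure D3:**
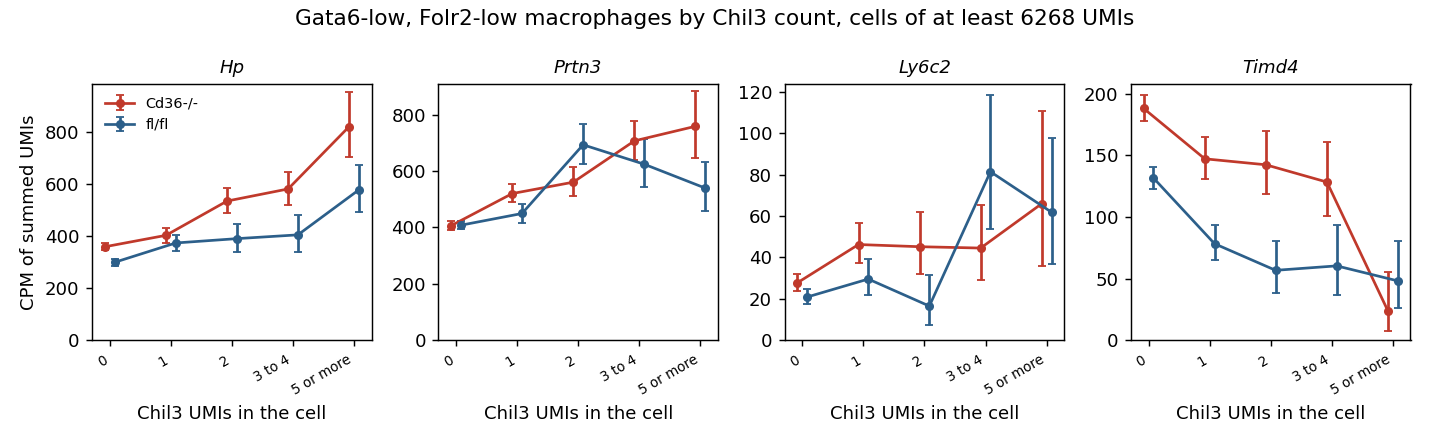
CPM of Hp, Prtn3, Ly6c2 and Timd4 in Gata6-low, Folr2-low macrophages grouped by Chil3 UMIs in the cell, Cd36-/- in red and fl/fl in blue, with 95% Poisson intervals. Hp is higher at each step in both libraries, up to 820 and 577 CPM, and Timd4 is lowest in the cells with 5 or more Chil3 UMIs.

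MHC class II varied widely among the members. These are the molecules that present antigen to CD4 T cells. The UMIs of H2-Aa, H2-Ab1, H2-Eb1 and Cd74 summed to 1.95 to 559 per 10000 over the Cd36-/- members (median 66.6) and to 4.51 to 568 over the fl/fl members (median 94.5). A limit of 100 per 10000, chosen after these values were seen, placed 12 of 25 and 14 of 28 members on the high side, with 4 and 3 members between 50 and 150. Shares on the high side were 48.0% (27.8 to 68.7) and 50% (30.6 to 69.4), against 44.8% and 37.1% of Folr2-positive cells, 55.2% and 52.5% of Chil3-low cells and 12.2% and 7.98% of large peritoneal macrophages at matched depth. The members' intervals hold the shares of Folr2-positive and Chil3-low cells and lie above those of large peritoneal macrophages.

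The 2 sides differed in other genes in the same direction in both libraries. Alox15 was at 474 CPM on the low side and 57.3 CPM on the high side for Cd36-/-, and at 221 and 41.0 CPM for fl/fl. Prg4 was at 976 and 544 CPM for Cd36-/- and at 622 and 212 CPM for fl/fl. Both genes were thus higher in members low in MHC class II, with most of the Cd36-/- Alox15 from the single cell named above. Arg1 was at 316 and 86.0 CPM, and at 200 and 109 CPM with overlapping intervals, but 1 Cd36-/- cell held 19 of the 34 low-side UMIs and 1 fl/fl cell 12 of the 16 high-side UMIs. Fn1, fibronectin, followed with 8153 and 6734 CPM for Cd36-/- and 9106 and 6468 CPM for fl/fl. High-side members were also set against all Folr2-positive cells, which were not split and had 44.8% and 37.1% of cells on the high side at matched depth. The log2 ratio was then -0.10 and -0.07 for Alox15 and -0.04 for Prg4 in the fl/fl library. Against these unsplit cells, the higher Alox15 and fl/fl Prg4 given above were seen on the low side only. Members and Folr2-positive cells of the same side were not compared. In Cd36-/- members of the high side Lrg1 and Pglyrp1 were likewise no longer higher, at -0.21 and -0.11.

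Plac8 had the reverse order in both libraries, and Hp and Id2 had opposite orders. Plac8, a monocyte gene, was at 149 CPM on the low side and 248 CPM on the high side for Cd36-/-, and at 55.3 and 294 CPM for fl/fl. Hp was at 920 and 716 CPM in the Cd36-/- library but at 456 and 697 CPM in the fl/fl library. Id2 was at 865 and 420 CPM for Cd36-/- and at 304 and 587 CPM for fl/fl. Each side holds 12 to 14 cells of 1 pool, and these opposite orders were not tested.

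**Figure D4:**
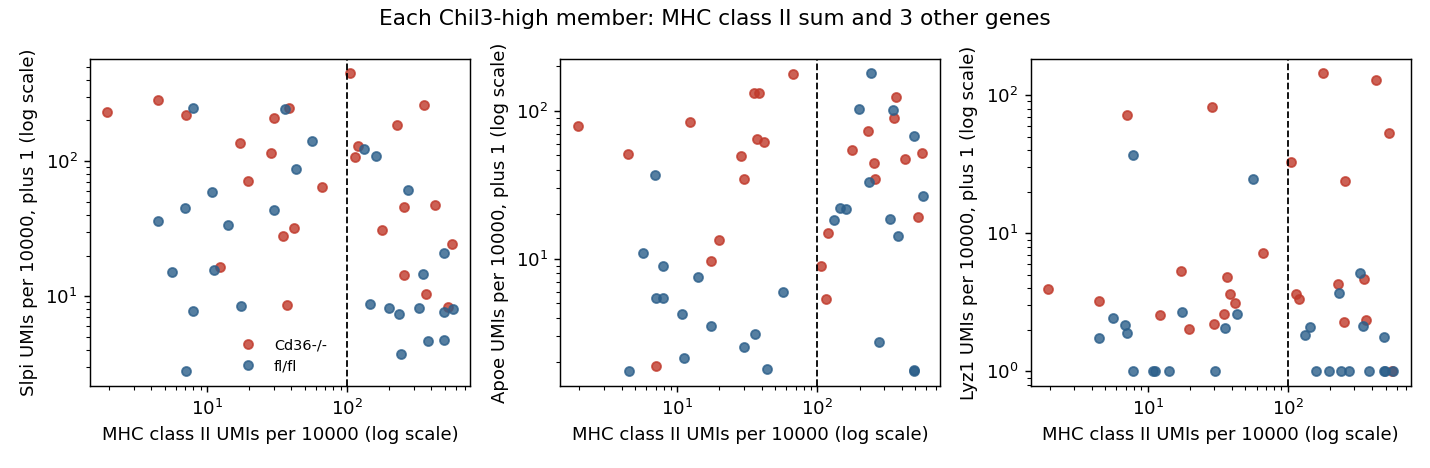
Each point is 1 Chil3-high member, with its MHC class II UMIs per 10000 on the x axis and Slpi, Apoe or Lyz1 UMIs per 10000 plus 1 on the y axis (all log scales), Cd36-/- in red and fl/fl in blue, and the dashed line at 100. Apoe is low in most fl/fl members left of the line, and Lyz1 is high in 7 Cd36-/- and 2 fl/fl members.

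The comparison of the libraries asks how Cd36 deletion goes with the members' RNA, and the targeted gene comes first. Cd36, a scavenger receptor and fatty acid translocase, had 33 UMIs in Cd36-/- members and 56 in fl/fl members, or 155 and 192 CPM, a log2 ratio of -0.31 (-0.97 to 0.34). It was seen in 18 of 25 and 15 of 28 members, and in 319 of 2459 and 581 of 3939 B cells. At 6804 UMIs per cell these shares were 68.2% (45.1 to 86.1) and 50% (30.6 to 69.4) of members and 20.3% and 16.4% of B cells. The interval of the ratio includes 0, so a lower level in Cd36-/- members was not detectable at this depth. The 3′ reads check the deletion only if the floxed exons include the counted end, which the labels do not say, so this value does not test the genotype.

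Among genes with enough UMIs, few differed between the libraries by 1.5-fold. Over the 4969 genes that reached 20 CPM on either side, 909 (18.3%) were at least 1.5-fold higher in Cd36-/- members and 1067 (21.5%) at least 1.5-fold lower, with a median log2 ratio over all of them of -0.04. Most of these differences lie within counting error, as 5 UMIs in each library give an interval from -2.01 to 1.88 on the log2 scale. Of 644 genes with at least 200 CPM, a limit added after seeing the data, 26 (4.04%) were higher and 23 (3.57%) lower. At 45 UMIs in each library the interval is from -0.59 to 0.58. The 5 label genes were all under the 1.5-fold limit, with a median of 0.49, and among those the rule did not use Prtn3 was at 0.49 (0.17 to 0.82), Hp at 0.51 (0.19 to 0.82), Arg1 at 0.39 (-0.25 to 1.03) and Lpl at 0.22 (-0.10 to 0.54).

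**Figure D5:**
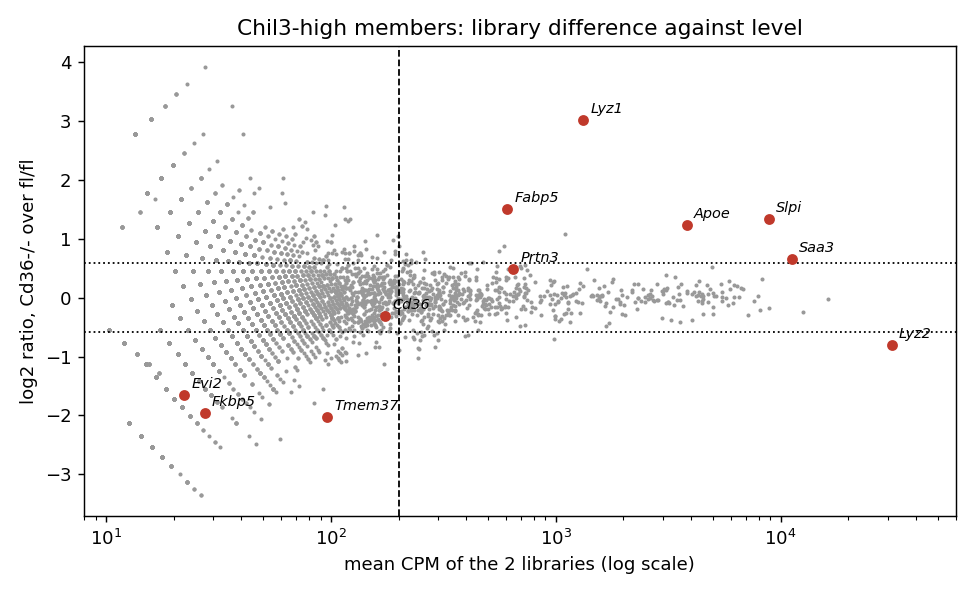
Log2 ratio of Cd36-/- over fl/fl members against mean CPM (log scale) for each compared gene, with dotted lines at 1.5-fold and the dashed line at 200 CPM, genes at 0 in 1 library being set to 3 UMIs there. The spread narrows with level, and Lyz1, Slpi, Apoe and Fabp5 lie above the cloud at high level while Lyz2 lies below it.

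Both lysozyme genes differed, in opposite directions. Lyz2, whose locus carries the LysM-Cre allele, was at 22806 CPM in Cd36-/- members and 39697 CPM in fl/fl members, a log2 ratio of -0.80 (-0.85 to -0.75). Per cell it ran from 40.9 to 332 UMIs per 10000 (median 231) against 174 to 580 (median 393), so the libraries overlapped. Lyz1, its neighbour on chromosome 10 and a close paralog, was at 2360 and 292 CPM, a log2 ratio of 3.02 (2.68 to 3.36). That level came from few cells, since 7 Cd36-/- members with at least 19 UMIs each held 464 of the 501 Lyz1 UMIs, and no other member had more than 5. In the fl/fl library 2 members held 65 of 85. The ratio was 1.52 among members low in MHC class II and 5.45 among those high in it. Both of these fl/fl members lay on the low side, and the high side had only 11 fl/fl Lyz1 UMIs. The other macrophage classes had the same directions, at -0.72, -0.82 and -0.66 for Lyz2 and at 2.17, 1.97 and 2.47 for Lyz1 in Folr2-positive, Chil3-low and large peritoneal cells. Reads of close paralogs can be divided between them in counting, and this was not tested.

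Slpi, Fabp5, Apoe and Saa3 were also higher in Cd36-/- members. Slpi was at 12710 CPM in Cd36-/- members and 5056 CPM in fl/fl members, 1.33 on the log2 scale (1.24 to 1.42). Per cell Slpi ran from 7.28 to 445 UMIs per 10000 with a median of 70.6, against 1.78 to 246 with a median of 14.4. The ranges overlapped over most of their length. Since 93.3% of Cd36-/- and 87.0% of fl/fl B cells also had a Slpi UMI, the low counts of some members can come from free RNA. The Slpi ratio was 0.93 among members low in MHC class II and 1.96 among those high in it. However, 1 Cd36-/- cell held 501 of the 1252 high-side UMIs, while 1 fl/fl cell held 147 and another 145 of 451. High-side medians were 45.2 for Cd36-/- and 7.23 for fl/fl per 10000, and low-side medians were 113 and 38.9. In Folr2-positive, Chil3-low and large peritoneal cells the Slpi ratio was 0.61, 0.47 and 0.13. Saa3, an acute phase serum amyloid, was at 13766 and 8727 CPM, 0.66 on the log2 scale (0.58 to 0.73), next to 0.58 in Folr2-positive cells.

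Fabp5, a cytosolic fatty acid carrier, was at 900 CPM in Cd36-/- members and 316 CPM in fl/fl members, 1.51 on the log2 scale (1.14 to 1.88). It was seen in 22 of 25 and 20 of 28 members, at medians of 5.25 and 1.27 UMIs per 10000. The Fabp5 ratio was 1.68 among members low in MHC class II and 1.27 among those high in it. In Folr2-positive, Chil3-low and large peritoneal cells it was 0.40, 0.34 and -0.01, and whether the members' ratio differs from these was not tested. Of 17 lipid handling genes, 3 were higher and 3 lower by 1.5-fold, beside 18.3% and 21.5% of all genes. The median was -0.24, so the list showed no common direction.

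Apoe, an apolipoprotein of cholesterol efflux, had a larger ratio between the libraries among members low in MHC class II. It was at 5375 CPM in Cd36-/- members and 2291 CPM in fl/fl members, 1.23 on the log2 scale (1.09 to 1.37), and 1 fl/fl cell gave 29.2% of that library's Apoe UMIs. On the low side Apoe was at 6387 CPM for Cd36-/- and 546 CPM in the fl/fl library, or 3.55 on the log2 scale. The median cell there had 60.2 Apoe UMIs per 10000 among Cd36-/- members and 3.83 among fl/fl members, although the ranges of 0.888 to 176 and 0.751 to 35.8 overlapped. On the high side it was at 4336 and 4016 CPM, a log2 ratio of 0.11, but 1 fl/fl cell held 195 of that library's 588 high-side Apoe UMIs. The high-side medians were 44.6 Apoe UMIs per 10000 for Cd36-/- and 20.9 for fl/fl, so the median cell was higher in the Cd36-/- library on both sides. Other classes had ratios of 1.19 (Folr2-positive), 0.73 (Chil3-low) and 0.67 (large peritoneal).

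Some interferon-response genes, Rtp4, Zbp1 and Gbp2 among them, were higher in Cd36-/- members, on few UMIs each. Of 11 type I interferon genes, 4 were higher and 0 lower, with a median of 0.34, beside the 18.3% of all genes that were higher. The summed list was nearly level, at 7717 CPM for Cd36-/- and 7412 CPM for fl/fl. Of its 20 genes, 6 had no UMI in Cd36-/- members and 4 had none in fl/fl members. Oasl2, Ifit1 and Ifit3 had UMIs only in fl/fl members, and Xaf1 only in Cd36-/- members. Rtp4, an interferon-induced transporter protein, had 21 and 7 UMIs, a log2 ratio of 2.04 (0.75 to 3.52), and Zbp1, a nucleic acid sensor, had 23 and 13 (1.28). Of 8 interferon-gamma GTPase genes and their regulators, 3 were higher and 1 was lower, beside 18.3% and 21.5% of all genes. Gbp2 was among the higher ones (0.77, 0.02 to 1.53). The transcription factor Irf8 had 35 and 19 UMIs (1.34, 0.49 to 2.23). Folr2-positive cells had smaller ratios for Rtp4, Zbp1, Gbp2 and Irf8, between 0.27 and 0.54.

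Glucocorticoid-induced genes had 0 of 13 higher and 8 lower, with a median log2 ratio of -0.89, beside the 21.5% of all genes that were lower. Fkbp5, a co-chaperone of the glucocorticoid receptor, had 0 UMIs in Cd36-/- members and 16 UMIs in 11 fl/fl members, at least 3.89-fold lower against a floor of 3 UMIs in the library. Klf9, a transcription factor induced by glucocorticoids, had 4 and 23 UMIs (-2.07, -4.06 to -0.52), and Tsc22d3, which encodes GILZ, had 30 and 76 (-0.89, -1.55 to -0.26). Tsc22d3 was seen in 14 of 25 and 27 of 28 members. The same 3 genes were lower in Folr2-positive cells, at -2.44, -1.38 and -0.60. Dusp1, Sgk1 and Anxa1 of the same list were at 0.46, 0.30 and 0.31.

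Efferocytosis genes, which serve the uptake of dying cells, had 0 of 15 higher and 8 lower, with a median of -0.61, beside 18.3% and 21.5% of all genes. The members of that list that were lower had at most 23 UMIs in a library, while C1qa, C1qb and C1qc, which belong to the rule, were at -0.43, -0.07 and -0.10. F13a1 had 8 and 38 UMIs (-1.79, -3.10 to -0.67). Of 15 endoplasmic reticulum stress genes, 5 were lower and 1 higher, beside the same shares of all genes. The chaperones Hsp90b1 and Pdia3 were at -0.64 and -0.71, with intervals from -1.07 to -0.21 and -1.29 to -0.16. Hspa5, Calr and Canx of that list were at 0.00, 0.00 and 0.01. The endoplasmic reticulum stress list thus held lower and level genes and 1 higher gene. Tmem37, Cbx3 and Fkbp4 were also lower, by -2.04, -2.40 and -2.48, on 8, 4 and 3 UMIs against 45, 29 and 23. Cbx3 has near-identical copies in the genome, so its count is uncertain. Evi2, at 0 and 13 UMIs, was at least 3.16-fold lower against the same floor, although Folr2-positive cells gave -0.18 for it.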

How the data were processed

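The 2 libraries were deposited as UMI counts per gene and barcode (31053 genes). The file headers name software version 3.0.0, and the submitters' processing notes name Cell Ranger and mm10. Aligner settings and any filter before deposit are not given in the sources used here. The deposited counts were used as they stand: totals were 116600732 UMIs in 16543 barcodes (Cd36-/-) and 117238057 in 15537 (fl/fl). Barcodes with at least 200 genes and at most 10% mitochondrial UMIs were kept. Doublets were marked with Scrublet in scanpy 1.11.5 and removed only as an alternative. Members' counts were summed per library and divided by the library's member total (212267 and 291155 UMIs). The ratio intervals were tested on simulated data. Genes are "higher" or "lower" by size, at least 1.5-fold with at least 20 CPM in 1 library, not by a test. With 1 library per group no model was fitted.

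The genes named are Cd36, Lyz2, Lyz1, the label genes, the highest and lowest by the interval bound nearest 0, between libraries and against Folr2-positive cells, and up to 4 per list, mitochondrial, ribosomal, immunoglobulin, sex-linked and unnamed genes left out; not all are described. Ccr2, Plac8, Fn1, Dusp1, Sgk1, Anxa1, Hspa5, Calr and Canx were added as list members after their values were seen. The members and the 34 gene lists were chosen with earlier results of these data known. Promoter sequences are RefSeq's (GRCm38.p6); entries matched Chil3, Prtn3 and Slpi. Alternatives changed the rule's limits, scaling, minimum level, depth and weighting.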

Additional observations from a re-analysis of the deposited data

How the results depend on the processing

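The difference in the share of filtered cells became 0.113 percentage points with a Chil3 limit of 3 UMIs and 0.0717 with 5 UMIs per 10000. The counts of genes at least 1.5-fold higher and lower were 377 and 473 with a Chil3 limit of 3 UMIs, 288 and 344 with a minimum of 50 CPM, 1782 and 2081 with 5 CPM, 471 and 622 with a 2-fold limit, and, added after seeing the data, 26 and 23 with 200 CPM. Higher genes numbered 1540 with no minimum and 1377 in thinned cells. Lower genes numbered 1679 among members at or over 100 MHC class II UMIs per 10000. Beside Folr2-positive cells, Marco, lower in the members, turned to 0.15 (fl/fl, 3 UMIs) and 0.37 (Cd36-/-, 5 UMIs per 10000). For members of the high MHC class II side, set against unsplit Folr2-positive cells, the ratios turned to -0.10 and -0.072 (Alox15), -0.036 (fl/fl Prg4), -0.21 (Cd36-/- Lrg1) and -0.11 (Cd36-/- Pglyrp1). The cause of these turns was not tested. A ratio is said to turn where it was at least 1.5-fold and took the other sign, and sign changes of smaller ratios were not counted. Of 502 recomputed library ratios of the named genes, 456 stayed within the original counting interval, 46 moved beyond it and 0 turned. Of 1044 recomputed ratios to Folr2-positive cells, 113 moved beyond that interval and 7 turned, as given above. Of 489 list medians, 107 moved by more than the counting error of the list's sum. Over 17 settings the median ran from -1.16 to -0.28 for glucocorticoid-induced genes, -0.68 to -0.25 for efferocytosis and 0.02 to 0.56 for type I interferon genes. It changed sign for lipid handling (-0.38 to 0.18), endoplasmic reticulum stress (-0.37 to 0.04) and interferon-gamma GTPases (-0.0048 to 1.29). A Chil3 limit of 10 UMIs left 5 and 1 members, and no gene ratio was computed. No paired analysis was possible because each group is 1 library. Depth limits what 25 and 28 cells can show for genes under about 200 CPM.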

Other observations

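At least 1.5-fold differences in opposite directions in members and Folr2-positive cells were seen for 6 genes, each with at most 8 UMIs in the members of a library, and none had a counting interval free of 0 in the members.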
